A study of Mus musculus with 6 samples.

Results

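Chemokines and their receptors were followed in hearts that had been exposed to Angiotensin II (Ang-II). They were taken as every protein-coding gene whose symbol follows the chemokine or chemokine receptor nomenclature (*Ccl*, *Cxcl*, *Cx3c* and *Xcl1* for ligands, *Ccr*, *Cxcr*, *Xcr1* and *Ackr* for receptors), without regard to its level. This gave 62 of the 56748 genes in the table, 39 ligands and 23 receptors. Each of the 6 libraries was made from 1 heart, 3 from Pontin cTG mice and 3 from their WT littermates. The transgene of Pontin cTG mice is a human Pontin cDNA with a flag tag, expressed in cardiomyocytes from the α-MHC promoter, and non-transgenic littermates served as WT. All 6 mice had received Ang-II from a mini-osmotic pump over 14 days (1.5 mg/kg BW/day). Per the study's methods they were males on a C57Bl/6 background, 10 weeks old when put on Ang-II. No vehicle-treated heart was analysed here, so the comparison is between genotypes under Ang-II only, and it asks whether Pontin in cardiomyocytes goes with a different chemokine profile of the stressed heart.

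Chemokines are small secreted proteins that guide migrating cells by binding receptors coupled to inhibitory G proteins. They are grouped by the spacing of their first cysteines into CC, CXC, CX3C and XC ligands. Homeostatic members such as *Cxcl12* are made steadily by stromal and endothelial cells, whereas inflammatory members such as *Ccl2* are induced by injury and draw leukocytes from blood. Atypical receptors (*Ackr*) bind chemokines without G protein signalling and act as scavengers. In the heart under Ang-II, the *Ccl2*-*Ccr2* axis is known for the recruitment of blood monocytes, and *Cx3cr1* marks many resident macrophages.

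Total counts ranged from 12436822 to 16888124 per library. Cardiomyocyte markers were abundant in all hearts, summing to between 530053 and 670291 normalised counts (counts scaled to a common library size), and all 4 thymus markers were at 0. Pontin cTG replicate 2 stood apart from the other libraries, at 50.9 on a first principal component that held 48.6% of the variance, against -23.1 to 16.2 for the rest, with WT replicate 2 nearest to it. Endogenous *Ruvbl1*, the mouse Pontin gene, read 216, 221 and 217 normalised counts in WT and 250, 250 and 240 in Pontin cTG hearts (log2 fold change 0.18, SE 0.12), and reads of the human cDNA need not map to it. In whole hearts, a lower level cannot be told apart from fewer cells of the type that makes the transcript.

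No chemokine or receptor gene passed a test of a difference between Pontin cTG and WT hearts. Of the 62 genes, 26 had enough counts to be tested, among 13888 genes tested in all. None of the 26 passed an adjusted p of 0.05 in edgeR's quasi-likelihood test, where the share over all genes tested was 0%. None reached an unadjusted p under 0.05 either, against 285 of all genes (2.05%, with 1.02% higher and 1.03% lower in Pontin cTG), and none had groups that did not overlap, against 8.33% of all genes (4.7% with every Pontin cTG heart above and 3.63% with every one below). The smallest unadjusted p was 0.0503 (*Cxcl14*), and the adjusted p was 0.999 for every one of the 26. For single genes, the exact two-sided permutation test cannot go below p = 0.1 with 3 mice a group, and its smallest value among these genes was 0.2. The log2 fold change was above 0 for 11 and below 0 for 15 genes, with a median of -0.051 beside 0.0013 over all genes, of which 50.2% were above 0. The other tools made no adjusted call among the members, and at an unadjusted p under 0.05 DESeq2 listed 1 of 52 genes (0.847% of all genes tested there) and limma-voom with sample quality weights listed 6 of 26 (5.72% of all genes tested), among them *Ackr2*, *Ccl11*, *Cx3cr1*, *Cxcl12* and *Cxcl14*.

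By role, the 11 tested CC ligands had a median log2 fold change of 0.14 (6 above 0 and 5 below), and the 6 tested CXC ligands one of -0.097 (2 above and 4 below). *Cx3cl1*, the only tested member of the CX3C and XC ligands, was at 0.23. Among the receptors, 4 of the 5 tested signalling receptors were below 0, and 2 of 3 atypical receptors, with a median of -0.093. The lowest receptor estimates, those of *Ccr2* and *Ccr1*, come with WT values led by 1 heart, WT replicate 2, as described below. Standard errors ran from 0.15 to 0.73, smallest for *Ackr3* and *Cx3cl1* and largest for *Ccr2*.

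**Figure D1:**
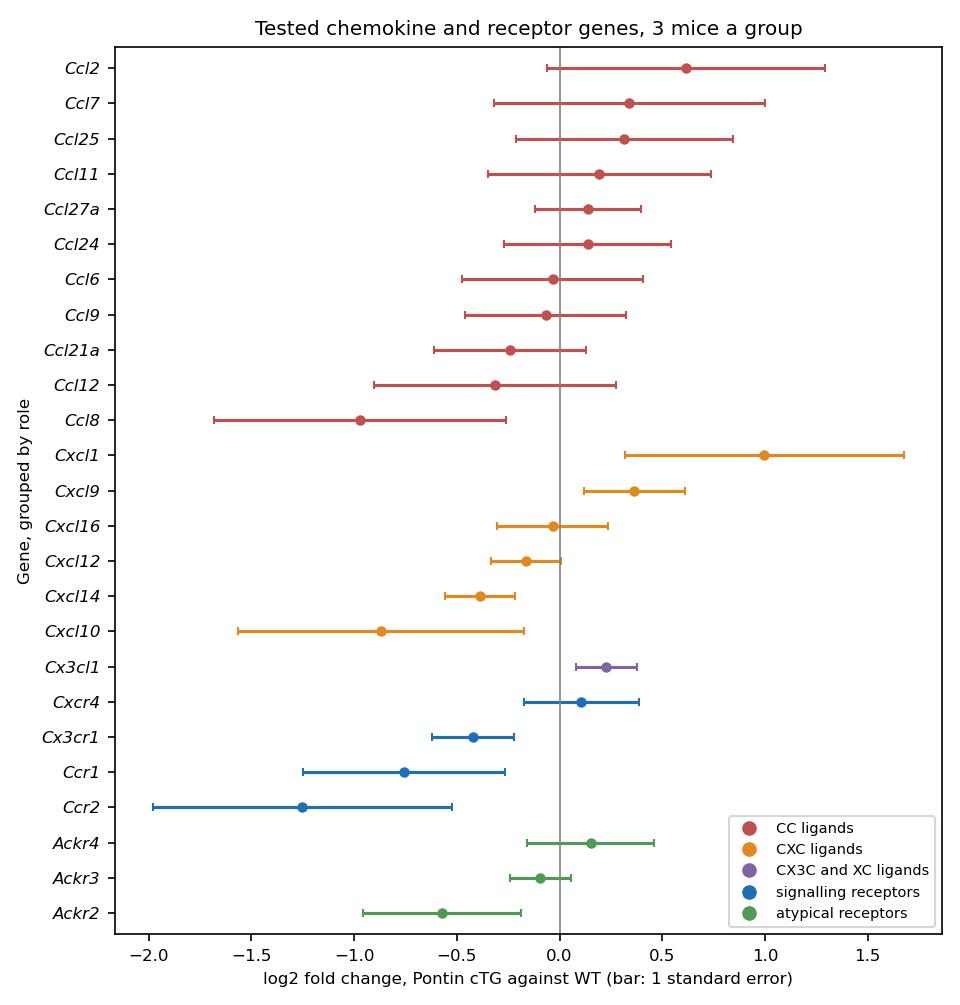
Log2 fold change (Pontin cTG against WT, edgeR) of 25 of the 26 tested genes on the horizontal axis, 1 gene per row, coloured by role, with bars of 1 standard error either side. Estimates run from -1.25 (*Ccr2*) to 1.00 (*Cxcl1*), and none passed an adjusted p of 0.05.

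To compare genes with each other, levels were expressed as CPM per kb (counts scaled to a library total of 1000000, divided by the gene length in kb). 3 genes had the highest means. *Cxcl12*, which retains and guides progenitors, lymphocytes and vascular cells, had a mean of 26.1 over the 6 hearts (range 21.9 to 33.5). *Ackr3*, the atypical receptor that scavenges CXCL12, followed at 25.5 (20.9 to 29.1), and *Ccl21a*, a lymphatic ligand of *Ccr7*, at 21.8 (12.9 to 38.2). Their ranges overlapped, so the order among these 3 is not settled. Next came *Cxcl14* at 9.17 (6.60 to 11.7), and this was the only step in the order, among 51 between neighbouring genes, at which the ranges of the 6 hearts did not overlap.

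Below them stood *Ccl6* at 7.82, *Cxcr4* at 4.32, *Ccl9* at 3.96, *Ccl2* at 3.77, *Ccl7* at 3.64, *Cxcl16* at 3.35 and *Cx3cl1* at 3.08 CPM per kb. Among receptors, *Cxcr4* was followed by *Cx3cr1* at 2.28 and *Ccr2* at 1.30. 18 genes reached a mean of 1 CPM per kb, 34 had counts but stayed below it, and 10 had no count in any heart. On this scale the leading ligand-receptor pairs were unequal: *Cxcl12* stood far above *Cxcr4*, *Cx3cl1* was close to *Cx3cr1*, *Ccl2* and *Ccl7* were each above *Ccr2*, and *Ccl21a* was at 21.8 beside 0.111 for *Ccr7*. The value of *Ccl21a* is uncertain, since 50.3% of the 100-base windows of its transcripts also occur in near-identical genes.

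**Figure D2:**
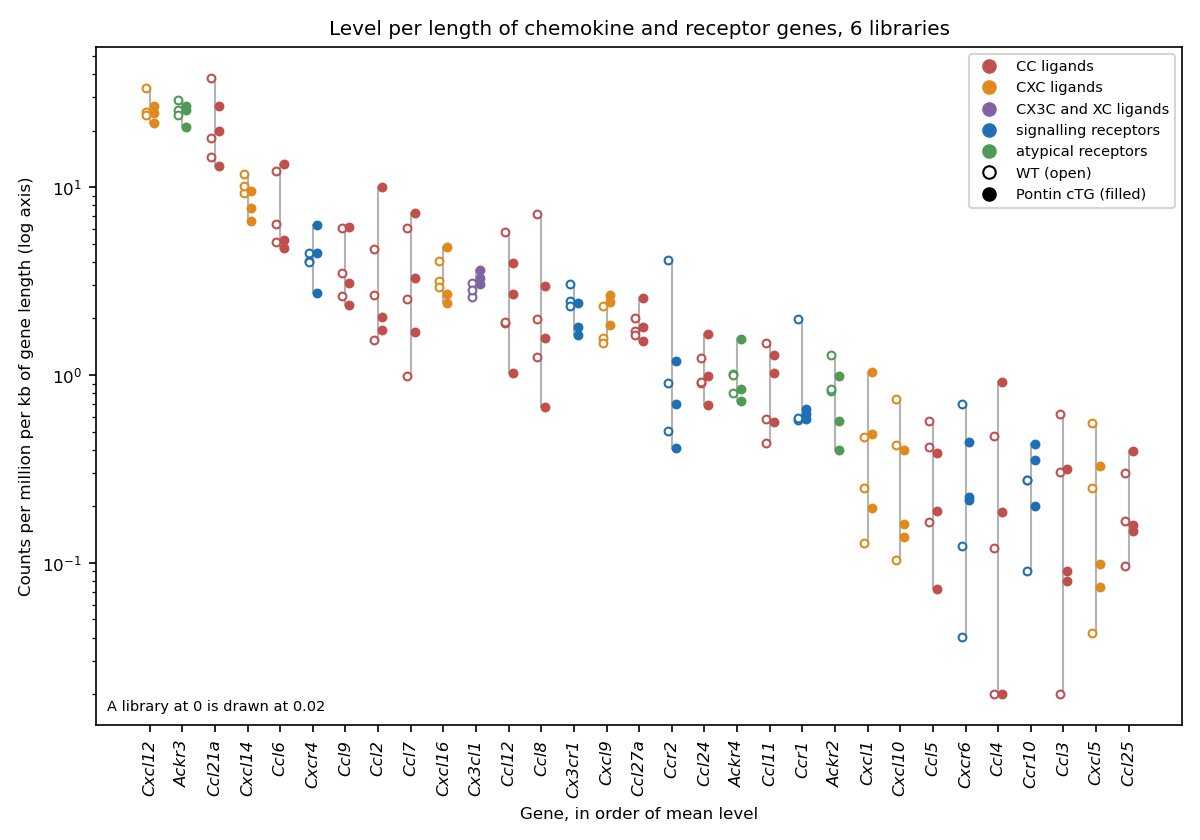
Level per length (CPM per kb, log axis) of 31 of the most abundant chemokine and receptor genes in order of their mean, coloured by role. Each point is 1 heart (open, WT; filled, Pontin cTG), and the line spans the 6 hearts, with a heart at 0 drawn at 0.02. *Cxcl12*, *Ackr3* and *Ccl21a* have the highest means, and the spans widen among the lower genes.

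*Cxcl12* and its receptors differed between genotypes by less than the spread between mice. *Cxcl12* had 3858, 2901 and 2781 normalised counts in the WT hearts and 2528, 3126 and 2870 in the Pontin cTG hearts (log2 fold change -0.16, SE 0.17, exact permutation p = 0.5). WT replicate 1 was the highest, and the other 5 hearts lay close together. *Ackr3* read 1210, 1137 and 1372 in WT and 1219, 986 and 1280 in Pontin cTG (-0.093, SE 0.15), with a highest to lowest ratio of only 1.39. *Cxcr4*, the signalling receptor of CXCL12 on leukocytes and endothelium, read 104, 102 and 113 in WT. Its Pontin cTG hearts spread to both sides of these, at 69.3, 159 and 113 (0.11, SE 0.28). For *Cxcr4* the sign turned without Pontin cTG replicate 2 (-0.21). *Ccl21a* read 225, 468 and 178 in WT and 158, 332 and 244 in Pontin cTG (-0.24, SE 0.37). Both replicate 2 hearts held its highest values in their group, and without WT replicate 2 the estimate was 0.28. The summed lymphatic endothelial markers (*Prox1*, *Pdpn*, *Flt4* and *Reln*) were instead lowest in the replicate 2 heart of each group. They summed to 1431 in WT replicate 2, in a WT range of 1431 to 1697. In Pontin cTG replicate 2 they summed to 965, against 1438 and 1525 in the other Pontin cTG hearts. That sum is mostly *Prox1*, at 846 and 426 in the WT and Pontin cTG replicate 2 hearts. *Pdpn*, *Flt4* and *Reln* were each highest in the replicate 2 heart of their group, as *Ccl21a* was. The part of lymphatic cells in its values was not tested.

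*Cxcl14* and *Cx3cr1* had the smallest unadjusted p in edgeR, both lower in Pontin cTG hearts, and neither passed an adjusted p of 0.05 in any fit. *Cxcl14*, a homeostatic chemokine of epithelia and stroma, read 240, 302 and 260 normalised counts in WT and 170, 245 and 198 in Pontin cTG, that is 267 ± 31.4 against 204 ± 37.9 (SD, n = 3). Only Pontin cTG replicate 2 reached into the WT range, just above the lowest WT heart. The log2 fold change was -0.39 (SE 0.17, edgeR, with an exact permutation p of 0.2), and it stayed below 0 in all 16 alternatives, between -0.54 and -0.26. *Cx3cr1*, the fractalkine receptor of monocytes and macrophages, read 157, 193 and 148 in WT and 103, 153 and 114 in Pontin cTG (-0.42, SE 0.20, exact permutation p = 0.2). Again the overlap came from Pontin cTG replicate 2. The span of *Cx3cr1* overlaps those of *Xirp1*, *Gorasp1* and *Csrnp1* on the same strand and that of *Wdr48* on the opposite strand. It is not known whether strand was used in counting, and strand could not separate the genes on the same strand. *Cx3cl1*, fractalkine itself, a membrane-bound ligand of endothelium, lay the other way, at 171, 144 and 157 in WT and 169, 200 and 183 in Pontin cTG (0.23, SE 0.15, exact permutation p = 0.2). Its values were the tightest of all 26 genes, with 157 ± 13.6 against 184 ± 15.3 (SD, n = 3), and only the lowest Pontin cTG heart overlapped WT. Of 9 macrophage markers, 7 were lower in Pontin cTG hearts (median log2 fold change -0.36), beside 6912 of all 13888 genes tested. Of these, 1 was at an unadjusted p under 0.05 in edgeR (*Mrc1*, -0.66), beside 2.05% of all genes tested. *Adgre1*, *Csf1r*, *Cd68*, *Mrc1* and *Folr2* were highest in WT replicate 2, and *Lyve1* and *Timd4* in Pontin cTG replicate 1. *C1qa* and *C1qb* were just above 0 (0.071 and 0.037). The summed level of these markers spanned 3103-5079 over the WT hearts and 2442-3745 over the Pontin cTG hearts. This sum and *Cx3cr1* were both highest in WT replicate 2, at 5079 and 193, and differed in order among the other hearts. Pontin cTG replicate 1 had the highest sum of its group, 3745, and the lowest *Cx3cr1* value of all hearts, 103. The part of macrophages in the result was not tested.

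**Figure D3:**
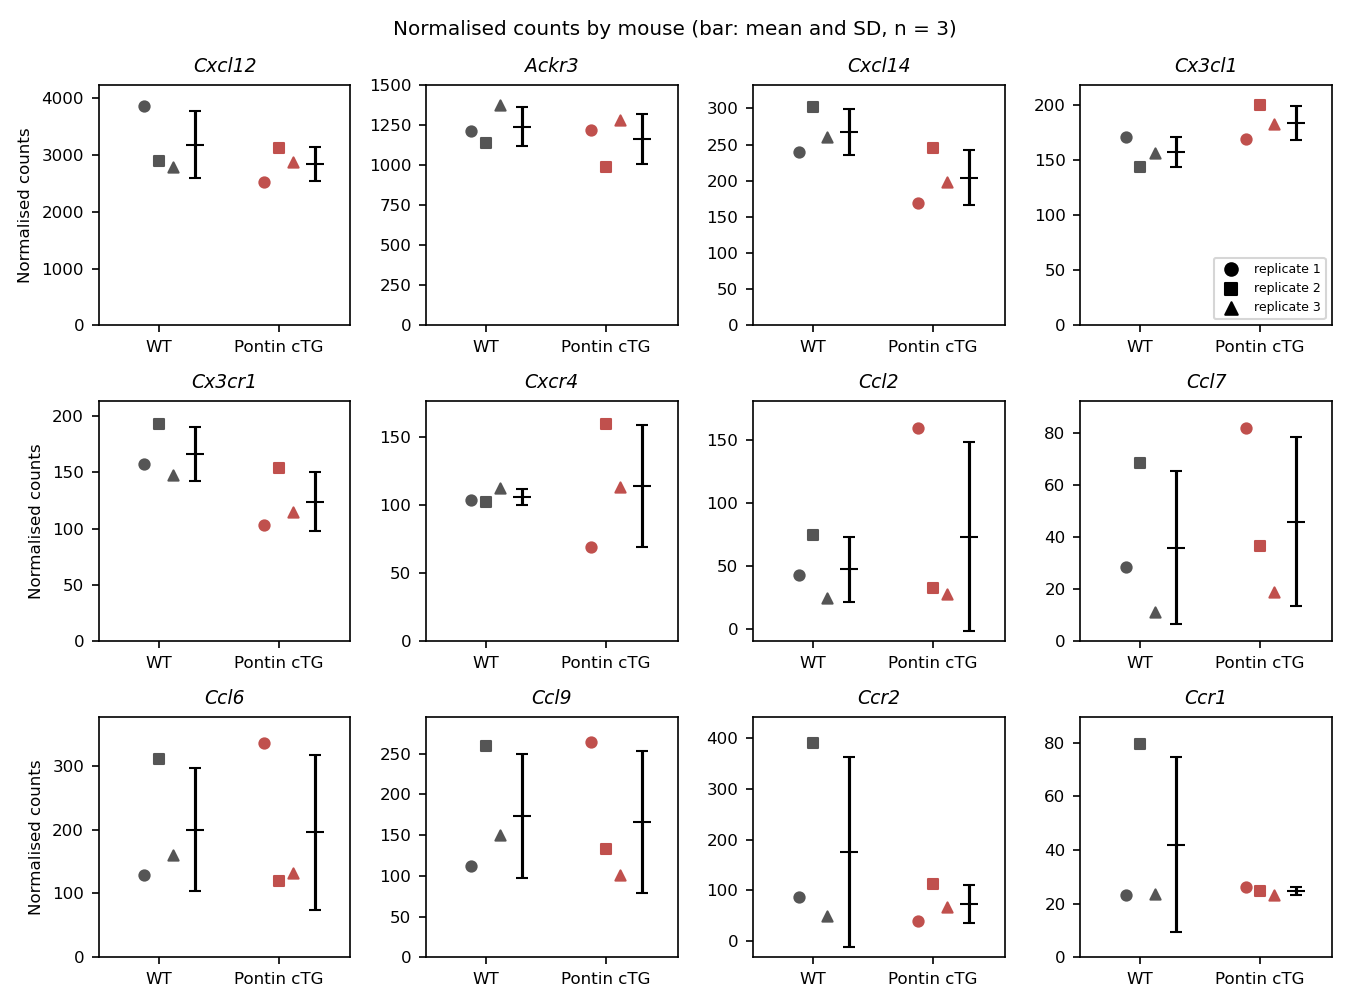
Normalised counts of 12 genes in each heart (vertical axes, each on its own scale). Symbols give the replicate number, and bars the mean and SD of 3 mice. *Cxcl14* and *Cx3cr1* are lower in Pontin cTG with some overlap, *Ccr2* is led by WT replicate 2, and *Ccl2* by Pontin cTG replicate 1.

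The receptors of inflammatory monocytes were highest in a single WT heart. *Ccr2*, which lets monocytes leave bone marrow and enter tissue, read 85.9, 390 and 48.1 normalised counts in WT and 39.1, 113 and 66.7 in Pontin cTG. WT replicate 2 alone held 52.5% of its normalised counts, a concentration seen in 0.13% of all genes tested. The log2 fold change of -1.25 (SE 0.73, exact permutation p = 0.6) became 0.13 (SE 0.46) without that heart. *Ccr1*, a receptor of myeloid cells for CCL3, CCL5, CCL6 and CCL9, read 23.1, 79.6 and 23.5 in WT and 26.4, 24.8 and 23.4 in Pontin cTG. Apart from WT replicate 2 its 5 hearts were nearly equal, and the estimate went from -0.76 (SE 0.49) to 0.091 (SE 0.34) without it.

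The ligands of *Ccr2* did not all have that heart on top. *Ccl2*, the main monocyte attractant, read 42.9, 75.2 and 24.6 in WT and 160, 32.5 and 27.7 in Pontin cTG. Pontin cTG replicate 1 stood above every other heart, and the remaining Pontin cTG hearts lay at the low end of WT. The log2 fold change of 0.61 (SE 0.68) turned to -0.65 (SE 0.47) without that heart. *Ccl7*, a close relative that acts on the same receptor, read 28.6, 68.4 and 11.2 in WT and 82.0, 36.8 and 19.1 in Pontin cTG (0.34, SE 0.66), again with Pontin cTG replicate 1 and WT replicate 2 on top, and its estimate without Pontin cTG replicate 1 was -0.36. *Ccl12*, the third of these ligands in mice, read 14.3, 43.7 and 14.5 in WT and 20.5, 30.0 and 7.80 in Pontin cTG (-0.31, SE 0.59). *Ccl8*, which in mice acts on *Ccr8*, read 14.3, 51.6 and 8.94 in WT and 4.88, 21.4 and 11.3 in Pontin cTG (-0.97, SE 0.71), a highest to lowest ratio of 10.6, the widest of the 26 genes. *Ccl12* and *Ccl8* thus had WT replicate 2 first and Pontin cTG replicate 2 next. Without WT replicate 2, *Ccl8* was at 0.12 (SE 0.66).

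These 4 ligands and the eotaxin *Ccl11* lie together on chromosome 11 (GRCm38, GENCODE M21), from *Ccl2* at chr11:82035571-82037453 to *Ccl8* at chr11:82115185-82116799, all on the plus strand. The gene order is *Ccl2*, *Ccl7*, *Ccl11*, *Ccl12*, *Ccl8*. The first pair shared Pontin cTG replicate 1 as its highest heart, and the other 3 shared WT replicate 2. *Ccl11* itself read 6.61, 22.4 and 8.94 in WT and 19.5, 8.56 and 15.6 in Pontin cTG (0.19, SE 0.54). On chromosome 9, the receptor genes *Ccr1* (chr9:123962124-123968692, minus strand) and *Ccr2* (chr9:124101950-124113557, plus strand) lie near each other, and both had WT replicate 2 as their highest heart, as had 11 of the 26 genes in all (16.8% of all genes tested).

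*Ccl6* and *Ccl9*, neighbouring genes for myeloid ligands of *Ccr1*, followed each other from heart to heart. *Ccl6* (chr11:83587882-83593087, minus strand) read 129, 310 and 161 in WT and 336, 120 and 132 in Pontin cTG. *Ccl9* (chr11:83572919-83578636, minus strand) read 112, 259 and 150 in WT and 265, 133 and 101 in Pontin cTG. In both genes WT replicate 2 and Pontin cTG replicate 1 stood near each other at the top and the remaining 4 hearts below them. The group means were nearly equal, with log2 fold changes of -0.034 (SE 0.44) and -0.068 (SE 0.39). Leaving out Pontin cTG replicate 1 moved them to -0.66 and -0.56, and leaving out WT replicate 2 to 0.43 and 0.34. No 100-base window of either transcript occurs in another gene. *Ccl5*, *Ccl3* and *Ccl4*, which share this stretch of chromosome 11, had at most 10 counts in any heart.

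The promoters of genes on which these values turn are shown as the 250 bases before the start of transcription (RefSeq, GRCm38.p6), 5′ to 3′ on the strand of the gene. *Ccl6* (chr11:83593088-83593337, minus) and *Ccl9* (chr11:83578637-83578886, minus) are given as the pair that varied together, *Cxcl1* (chr5:90890995-90891244, plus) as the gene with the highest estimate, *Cxcl10* (chr5:92348890-92349139, minus) as the one with most motif matches among those tested, and *Cxcl14* (chr13:56296552-56296801, minus) as the one with the smallest p. Capitals mark matches to the NF-kappaB consensus, to the interferon-stimulated element (ISRE, read as GAAA, any 2 bases and GAAA again) or to the gamma-activated site (GAS, TTCNNNGAA), searched on both strands.
Ccl6: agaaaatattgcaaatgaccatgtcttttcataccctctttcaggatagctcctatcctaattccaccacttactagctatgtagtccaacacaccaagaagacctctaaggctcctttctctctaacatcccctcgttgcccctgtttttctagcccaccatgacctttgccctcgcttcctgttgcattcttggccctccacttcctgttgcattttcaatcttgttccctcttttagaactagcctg
Ccl9: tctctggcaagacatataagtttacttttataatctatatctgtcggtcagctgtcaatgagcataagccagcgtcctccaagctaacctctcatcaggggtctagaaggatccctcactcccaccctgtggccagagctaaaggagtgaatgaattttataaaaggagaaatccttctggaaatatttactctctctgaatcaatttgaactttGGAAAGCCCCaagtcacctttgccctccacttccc
Cxcl1: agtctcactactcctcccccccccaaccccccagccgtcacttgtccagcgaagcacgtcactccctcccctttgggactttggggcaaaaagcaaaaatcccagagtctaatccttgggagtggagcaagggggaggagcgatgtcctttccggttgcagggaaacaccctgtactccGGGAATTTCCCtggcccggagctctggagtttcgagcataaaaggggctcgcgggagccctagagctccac
Cxcl10: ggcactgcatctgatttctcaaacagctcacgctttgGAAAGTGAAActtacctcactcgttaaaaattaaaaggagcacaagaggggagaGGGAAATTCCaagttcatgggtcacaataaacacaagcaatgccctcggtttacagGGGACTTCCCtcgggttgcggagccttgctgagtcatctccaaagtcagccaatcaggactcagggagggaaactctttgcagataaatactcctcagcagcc
Cxcl14: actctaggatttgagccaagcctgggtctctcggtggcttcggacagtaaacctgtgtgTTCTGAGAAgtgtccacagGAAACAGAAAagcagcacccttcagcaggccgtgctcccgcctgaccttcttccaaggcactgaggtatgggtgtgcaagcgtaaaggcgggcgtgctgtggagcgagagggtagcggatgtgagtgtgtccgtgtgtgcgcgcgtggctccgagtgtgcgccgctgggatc
*Ccl6* has no match in this window and *Ccl9* has 1 NF-kappaB match, at positions -35 to -26 from the start. The *Cxcl1* match is a pair of overlapping NF-kappaB matches on the same 11 bases, and *Cxcl10* has 2 separate NF-kappaB matches and an ISRE. In *Cxcl14* there is a GAS and an ISRE. For 47 of the 62 genes, 54 promoters were found. Of these 54, 9 held the NF-kappaB consensus, beside 3.9% of all 32851 promoters. They belong to *Ackr2*, *Ccl20*, *Ccl9*, *Ccr3*, *Ccr6*, *Cxcl1*, *Cxcl10*, *Cxcl2* and *Cxcl3*. Only *Ackr2*, *Ccl9*, *Cxcl1* and *Cxcl10* among these had enough counts to be tested. Of the 54 promoters, 3 held an ISRE (2.98% of all promoters), 4 a GAS (7.02%) and 2 an E-box, CACGTG (6.02%). The matches are descriptions of letters, and no binding was measured.

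Among the remaining CXC ligands, those induced by interferon did not share a direction. *Cxcl9* read 67.2, 62.8 and 99.5 normalised counts in WT and 78.1, 104 and 113 in Pontin cTG (0.36, SE 0.25, exact permutation p = 0.2). Pontin cTG replicates 2 and 3 were above every WT heart. *Cxcl10*, its neighbour on chromosome 5, read 3.30, 23.6 and 13.4 in WT and 12.7, 5.14 and 4.33 in Pontin cTG (-0.87, SE 0.70), and it lies within *Art3* on the opposite strand, which had 2742 to 4131 counts per heart. Their receptor *Cxcr3*, found on T and NK cells, had at most 4 counts in any heart. *Cxcl1*, which draws neutrophils, read 6.61, 12.3 and 3.35 in WT and 27.3, 12.8 and 5.20 in Pontin cTG, the highest estimate of all 26 genes (1.00, SE 0.68, exact permutation p = 0.4). Pontin cTG replicate 1 held 40.4% of its normalised counts, and without it the value was 0.29 (SE 0.72). *Cxcr2*, its receptor on neutrophils, was counted 0, 5 and 4 times in WT and 13, 2 and 5 times in Pontin cTG, with that heart again on top, too few to be tested. *Cxcl2* and *Cxcl5*, further ligands of *Cxcr2*, had at most 3 and 13 counts in any heart. *Cxcl16*, a transmembrane ligand, read 135, 172 and 125 in WT and 115, 204 and 103 in Pontin cTG (-0.032, SE 0.27), and its receptor *Cxcr6* was counted 1, 17 and 3 times in WT and 6, 14 and 7 times in Pontin cTG. Both had their highest values in the replicate 2 hearts. *Cxcr6* lies within *Fyco1* on the opposite strand, which had 3473 to 7206 counts per heart.

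The scavenging receptors other than *Ackr3* were low. *Ackr2*, which degrades inflammatory CC chemokines, read 36.3, 56.1 and 36.9 in WT and 17.6, 43.7 and 25.1 in Pontin cTG (-0.57, SE 0.38, exact permutation p = 0.3). Its estimate was below 0 in all 16 alternatives, the one nearest 0 being -0.31 without Pontin cTG replicate 1. *Ackr4*, a scavenger of CCL19, CCL21 and CCL25, read 77.1, 60.6 and 76.0 in WT and 63.5, 118 and 55.4 in Pontin cTG (0.15, SE 0.31). Only Pontin cTG replicate 2 was above WT, and without it the estimate was -0.26. *Ackr4* lies within *Acad11* on the opposite strand. *Ackr1*, the Duffy receptor of venules and erythroid cells, had at most 7 counts in any heart.

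Among CC ligands best known from skin, gut and allergic inflammation, *Ccl27a*, a ligand of *Ccr10*, read 57.3, 67.3 and 54.8 in WT and 50.8, 85.6 and 60.6 in Pontin cTG (0.14, SE 0.26). *Ccl25*, a ligand of *Ccr9*, read 17.6, 31.4 and 10.1 in WT and 16.6, 41.1 and 15.6 in Pontin cTG (0.32, SE 0.53). Both were highest in the replicate 2 hearts. *Ccl24*, an eotaxin, read 16.5, 16.8 and 22.4 in WT and 12.7, 18.0 and 30.3 in Pontin cTG (0.14, SE 0.41), and the eotaxin receptor *Ccr3* had at most 2 counts in any heart. For *Ccl27a*, 26.5% of the 100-base windows also occur in near-identical genes.

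The spread between hearts was larger for chemokines and receptors than for most genes. The median SD within groups of log2(CPM + 1) was 0.41 over the 26 genes beside 0.21 over all genes tested. The genes were not matched for level, several of the 26 had low counts, and the part of counting error in this spread was not tested. WT replicate 2 was more than 0.5 above a gene's mean over the 6 hearts for 11 of the 26 genes (3.51% of all genes tested), Pontin cTG replicate 1 for 5 (1.19%) and Pontin cTG replicate 2 for 4 (8.55%). The other 3 hearts were so for none. Pontin cTG replicate 1 was also more than 0.5 below the mean for 6 genes (1.94% of all genes tested), *Ccr2*, *Ccl8* and *Cxcr4* among them. WT replicate 3 and Pontin cTG replicate 3 were so for 4 genes each (1.00% and 3.73%), and Pontin cTG replicate 2 for 1 (8.09%). Over the 26 genes the median deviation was 0.42 in WT replicate 2 and lay between -0.26 and 0.12 in the others. With WT replicate 2 left out, 19 of the 26 genes were above 0 and 7 below, with a median log2 fold change of 0.12, and without both replicate 2 hearts 12 were above and 13 below. The median also moved when other single libraries were left out, to -0.25 without Pontin cTG replicate 2 (10 above and 16 below) and to 0.11 without Pontin cTG replicate 3 (15 above and 12 below), and it was between -0.16 and -0.11 without WT replicate 1, WT replicate 3 or Pontin cTG replicate 1.

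**Figure D4:**
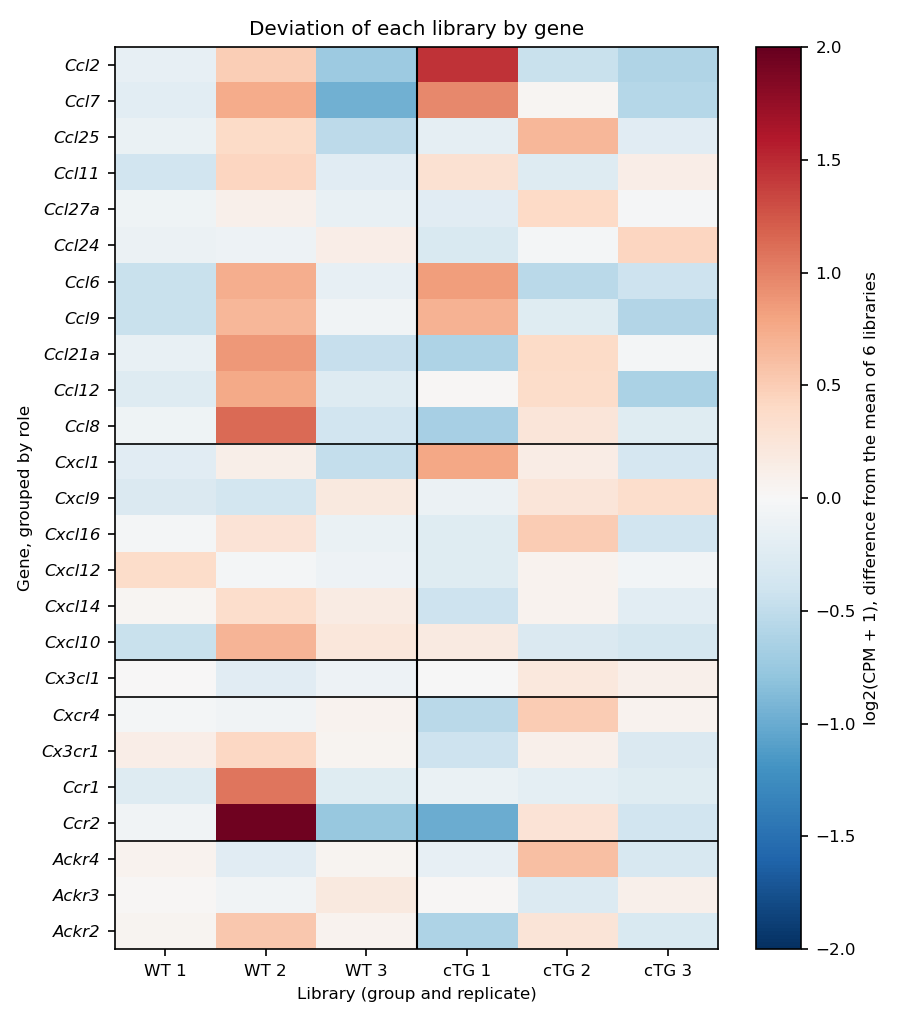
Difference of log2(CPM + 1) from the gene's mean over 6 hearts (colour scale), for 25 of the 26 tested genes (rows, by role, separated by lines) in each heart (columns, with cTG for Pontin cTG). WT 2 is high for *Ccr2*, *Ccr1* and *Ccl8*, cTG 1 is high for *Ccl2*, *Ccl7*, *Ccl6*, *Ccl9* and *Cxcl1*, and no row separates the genotypes.

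Summed macrophage and neutrophil markers were high in WT replicate 2, and neutrophil markers also in Pontin cTG replicate 1, while other leukocyte lists differed. The summed macrophage markers were highest in WT replicate 2, at 5079 normalised counts, against 2442 to 3745 in the other 5 hearts. Neutrophil markers summed to 132 in WT replicate 2 and to 172 in Pontin cTG replicate 1, against 18.7 and 38.0 in the other WT and 38.5 and 82.3 in the other Pontin cTG hearts, and all 4 tested markers had estimates above 0 (median 0.69). *S100a8* read 28.0 and 39.1 in those 2 hearts and at most 14.7 elsewhere, while *Ly6g*, a defining neutrophil marker, was at 0 in all hearts. Of the monocyte markers, *Chil3* read 25.8 in WT replicate 2 and at most 4.47 elsewhere, *Plac8* 30.3 and at most 13.9, and *Ly6c2* stayed under 10 in every heart. Their sum, which is mostly *Fn1*, spanned 769-1620 over the WT hearts and 423-1563 over the Pontin cTG hearts. The dendritic cell marker *Cd209a* read 31.4 in WT replicate 2 and at most 9.42 elsewhere, but *Zbtb46* was lowest in that heart at 216, *Itgax* and *Clec9a* were highest in Pontin cTG replicate 2, and the list summed to 359 in WT replicate 2 and 491 in Pontin cTG replicate 2, against 314 to 352 in the other hearts. T cell markers summed to only 25.7 to 36.8, B cell markers to 10.7 to 41.1, NK cell markers to 3.91 to 14.6 and mast cell markers to 12.3 to 36.3 per heart. NK cell markers were highest in WT replicate 2, T and B cell markers in Pontin cTG replicate 2, and mast cell markers in WT replicate 1. Pontin cTG replicate 1 was lowest for B and NK cell markers, and WT replicate 2 for mast cell markers. Endothelial markers summed to 10837 to 15244 and fibroblast markers to 10803 to 16341, with the replicate 2 hearts highest in both lists. Sums for smooth muscle and pericytes (13375 to 15659), mesothelium (51.6 to 102) and erythroid cells (11370 to 21669) were not highest in either replicate 2 heart. The part of any of these cells in the chemokine values was not tested.

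Low counts kept 36 genes out of the test, and the depth allows no statement on a difference for these. No count was found in any heart for 10 of them: *Ccl1*, *Ccl20*, *Ccl21b*, *Ccl21d*, *Ccl26*, *Cxcl15*, *Cxcl17*, *Ccr1l1*, *Ccr4* and *Cxcr1*. A count of 0 allows up to 0.178 to 0.241 CPM, depending on the library (3 counts, counting error only). For *Ccl21b* and *Ccl21d* it sets no such limit, since 100% and 96.9% of their 100-base windows occur in other genes. Another 9 had 1 to 5 counts over all 6 hearts, among them *Ccl19*, *Cxcl13*, *Xcl1*, *Ccr3*, *Ccr6* and *Ccr8*. The remaining 17 had 6 or more counts in all, up to 48 for *Cxcr6*. *Ccl5*, a T cell and NK cell product that binds *Ccr1*, was counted 7, 2 and 5 times in WT and 1, 3 and 6 times in Pontin cTG. *Ccl4*, an inflammatory ligand of myeloid and T cells, was counted 4, 1 and 0 times in WT and 0, 10 and 2 times in Pontin cTG, with 54.1% of its normalised counts in Pontin cTG replicate 2. *Ccr7*, which guides dendritic cells and T cells to CCL19 and CCL21, had at most 7 counts in any heart, and *Cxcr5*, the receptor of CXCL13, at most 8.

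Genes around the chemokines in the pathway were looked at in 5 further lists. Of 7 ligands and receptors whose symbols the naming rule does not catch, 3 were above 0 and 4 below (median log2 fold change -0.026). *Ppbp*, a platelet chemokine, read 42.9, 101 and 63.7 normalised counts in WT and 24.4, 16.3 and 104 in Pontin cTG (-0.51, SE 0.63). *Cmklr1*, the chemerin receptor, was highest in Pontin cTG replicate 1 at 593, against 246 to 374 elsewhere. The 13 tested genes for G proteins and receptor regulation had a median of 0.047 (7 above 0 and 6 below). Of the 16 migration effectors, 14 were below 0 (median -0.24), beside 6912 of all 13888 genes tested. None reached an unadjusted p under 0.05 in edgeR, beside 2.05% of all genes tested. The lowest of the 16 were *Dock2*, which activates Rac in leukocytes (-0.74, SE 0.33), and *Pik3cg*, the PI3-kinase catalytic subunit downstream of chemokine receptors (-0.73, SE 0.32). *Pik3cg* read 57.3, 98.7 and 58.1 in WT and 44.9, 54.8 and 29.5 in Pontin cTG. It was the only 1 of the 16 whose groups did not overlap, beside 8.33% of all genes tested. The groups also did not overlap for 2 of the 13 genes for G proteins and receptor regulation and 1 of the 10 for processing and presentation. *Dock2* and *Pik3cg* are leukocyte genes and were highest in WT replicate 2. *Pik3r5*, *Vav1*, *Rac2*, *Cdc42*, *Itgal*, *Itgam*, *Itgb1*, *Itgb2* and *Itga4* were also highest in that heart, and the other migration effectors in other hearts. The summed macrophage markers were also highest in WT replicate 2, but *C1qa*, *Lyve1* and *Timd4* among them were highest in a Pontin cTG heart. The part of leukocytes in these values was not tested. The 10 genes of chemokine processing and presentation had a median of 0.013 (5 above 0 and 5 below), and the 4 tested genes of vascular adhesion one of 0.11 (2 above and 2 below). *Icam1*, an endothelial ligand for leukocyte integrins, read 146, 181 and 139 in WT and 327, 190 and 124 in Pontin cTG (0.46, SE 0.31), with its highest value in Pontin cTG replicate 1, the heart that also led *Ccl2*, *Ccl7* and *Cxcl1*.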

How the data were processed

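Hearts of 3 WT and 3 Pontin cTG mice were compared, 1 library per mouse. The authors deposited whole-number counts per gene, not normalised. The submitters' processing notes name fastp, HISAT2, featureCounts and the GRCm39 build, whereas the study's methods name Trimmomatic, STAR and mm10, and whether counting used strand is not given in the sources used here. The table's gene lengths were used as deposited, and all 6 sample columns were matched by name (0 columns were left unmatched).

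Genes were kept by filterByExpr (minimum count 10), normalised by TMM and tested in edgeR 4.0.16 (R 4.3.3) by quasi-likelihood, with a term for genotype and no other, and p-values were adjusted by Benjamini-Hochberg over 13888 genes. To obtain normalised counts, each library's counts were brought to the geometric mean of the TMM-scaled library sizes. A level per length is CPM per kb of gene length. The common biological coefficient of variation was 0.197. Alternatives were DESeq2 1.42.0, its size factors in edgeR, library size alone, no filter, a minimum of 10 counts in each library, only protein-coding genes, no mitochondrial genes, a block for the replicate number, limma-voom with sample quality weights (limma 3.58.1), which changes the tool and the weight of each library together, and each library left out. Leaving out both replicate 2 libraries was added after the data had been seen. Tests were first run on simulated data.

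The members, the gene lists, the marker lists and the rule for genes to be named were chosen with earlier results of these data known. Named were genes at an unadjusted p under 0.05 or with groups that do not overlap (none), the 3 highest levels per length in each role, the 5 largest and 5 smallest fold changes among genes with a mean of at least 20 normalised counts, members of known ligand-receptor pairs, and genes with most of their counts in 1 library. Other tested members are given by their values, and 1 gene counted among the members is not reported here. Gene positions are from GENCODE M21 and promoters from RefSeq, both on GRCm38. Protein features were planned and are not used here. Same-numbered libraries deviated from their group means with correlations of 0.077, 0.43 and 0.19 and no source names a shared litter, so they were treated as unpaired. No pair of libraries agreed within sampling noise (chi-square per gene at least 5.62). The study's methods mention that an outlier by principal component analysis was left out, and which sample that was is not given.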

Additional observations from a re-analysis of the deposited data

How the results depend on the processing

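No chemokine or receptor gene passed an adjusted p of 0.05 under any of the 16 alternatives, with a smallest adjusted p of 0.855. Over all genes, adjusted calls went from 0 to 1 in DESeq2, 3 without a filter on low counts, 3 in limma-voom with sample quality weights (a change of both tool and library weights) and 6 without both replicate 2 libraries, and from 0 to 3 when single libraries were left out. Genes at an unadjusted p under 0.05 went from 285 of 13888 tested to 217 of 25633 in DESeq2 and 478 of 25636 without a filter. In limma-voom with sample quality weights they were 794 of 13888, and without both replicate 2 libraries 572 of 13794. With single libraries left out they ranged from 122 of 14401 to 686 of 13978, the last without Pontin cTG replicate 2. Among the chemokine and receptor genes this count went from 0 of 26 to 1 of 52 in DESeq2 and 3 of 52 without a filter. With the DESeq2 size factors it was 1 of 26, beside 285 of 13888 genes. It was 6 of 26 in limma-voom with these weights and 3 of 25 without both replicate 2 libraries. With single libraries left out it was 0 to 4, the 4 of 26 being without Pontin cTG replicate 2. DESeq2 and the fit without a filter covered 52 of these genes in place of 26, by their construction. With the replicate number as a block, 499 of 13888 genes and 3 of the 26, among them *Cx3cr1* and *Cxcl14*, were at an unadjusted p under 0.05, and 0 passed the adjustment. No source names a litter shared by same-numbered libraries, and whether they share more than a number is not known. The causes of the other moves were not tested.

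Of 409 gene values compared, 365 kept their direction and 44 turned it. *Ackr2*, *Cx3cl1*, *Cx3cr1*, *Cxcl1*, *Cxcl14* and *Cxcl9* kept theirs throughout. Without both replicate 2 libraries the log2 fold change turned to -0.36 for *Ackr4*, 0.0068 for *Ccl21a*, -0.0035 for *Ccl27a*, 0.68 for *Ccl6*, 0.47 for *Ccl9*, 0.093 for *Ccr1*, 0.0039 for *Cxcl10* and -0.23 for *Cxcr4*. In limma-voom with sample quality weights it turned to -0.24 for *Ackr4*, -0.044 for *Ccl24*, -0.042 for *Ccl27a*, 0.59 for *Ccl6*, 0.44 for *Ccl9*, 0.36 for *Cxcl10* and -0.28 for *Cxcr4*, and with library size alone to 0.015 for *Cxcl16*. With single libraries left out, the ranges that crossed 0 were -0.17 to 0.012 for *Ackr3*, -0.26 to 0.35 for *Ackr4*, -0.11 to 0.89 for *Ccl11*, -0.79 to 0.42 for *Ccl12*, -0.65 to 1.11 for *Ccl2*, -0.52 to 0.28 for *Ccl21a*, -0.27 to 0.38 for *Ccl24*, -0.29 to 0.82 for *Ccl25*, -0.099 to 0.30 for *Ccl27a*, -0.66 to 0.43 for *Ccl6*, -0.36 to 1.19 for *Ccl7*, -1.59 to 0.12 for *Ccl8*, -0.56 to 0.34 for *Ccl9*, -1.04 to 0.091 for *Ccr1*, -1.71 to 0.13 for *Ccr2*, -0.24 to 0.0045 for *Cxcl12*, -0.40 to 0.15 for *Cxcl16* and -0.21 to 0.37 for *Cxcr4*. With 3 mice a group, and with most inflammatory members under 100 normalised counts, only changes well above the spread between hearts could have been detected.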
